A study of Mus musculus with 2 samples.

Results

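The mitochondrially encoded genes were all genes whose symbol starts with mt- in the deposited tables of 2 single-cell libraries from mouse spleen. They were 37 of the 30457 genes of both tables together: 13 messenger RNAs, 2 ribosomal RNAs and 22 transfer RNAs. TAS-Seq listed all 37, and BD WTA listed 36, without mt-Tq. The rule used the symbol alone, and no measured value chose a member.

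Both libraries came from 1 suspension of cells, and each holds different cells of it. Female C57BL/6J mice of 10 weeks carried subcutaneous Lewis lung carcinoma (LLC), a transplanted mouse tumour line, and received 200 μg of anti-CD4 antibody on days 5 and 9 after the injection. Spleens were taken on day 12, those of 3 mice were pooled, and the cells were frozen and thawed before 2000 of them were loaded on 1 BD Rhapsody cartridge, a nanowell device in which beads capture polyadenylated RNA. One part of the beads was amplified by TAS-Seq, in which terminal transferase lengthens the cDNA by a run of C that a dideoxynucleotide stops, and the remainder by the BD WTA kit, the maker's random-priming protocol. No untreated or tumour-free spleen was analysed here, and the pooling leaves no animal-level spread. With 1 library per method no test of a difference between methods or between cell classes was possible, and all intervals given here are 95% intervals for counting error only. The tables count reads without molecular identifiers, so reads of 1 captured molecule are not independent.

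The mouse mitochondrial genome is a small circle that is transcribed from both strands into long precursors. Transfer RNAs lie between most of the other genes and are cut out of the precursors, which frees the ribosomal RNAs and the messenger RNAs. Most of these then receive short A tails. The messenger RNAs encode the core subunits of the respiratory chain, while most other subunits of the same complexes are encoded in the nucleus. In single-cell work the summed share of mt- reads is mostly read as a sign of damaged cells.

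The nuclear genome holds copies of mitochondrial sequence, and the mapping reference of the study included such copies as genes of their own. Of the nuclear genes with reads, 7 shared at least 50% of their 31-base words with the mitochondrial transcripts, and all 7 lie beside each other on the minus strand at chr1:24611535-24616197 (GRCm38). The first bases of mt-Atp6, which encodes a subunit of the proton channel of ATP synthase, and of its copy Gm10925 show how close these are. The windows of 60 bases at chrM:7927-7986 (plus strand) and chr1:24614592-24614651 (minus strand) did not differ at any position:
mt-Atp6: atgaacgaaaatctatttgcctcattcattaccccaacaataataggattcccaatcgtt
Gm10925: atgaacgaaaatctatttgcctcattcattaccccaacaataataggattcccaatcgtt
Over their whole length, 5 of the 7 copies had no base that differed from the mitochondrial gene. The other two differed at their first bases. The capitals below mark the differing bases in windows of 40 bases, at chrM:6381-6420 and chr1:24616158-24616197 for mt-Co1 and at chrM:9459-9498 and chr1:24613080-24613119 for mt-Nd3:
mt-Co1: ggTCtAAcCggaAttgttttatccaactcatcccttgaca
Gm29216: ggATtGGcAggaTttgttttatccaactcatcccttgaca
mt-Nd3: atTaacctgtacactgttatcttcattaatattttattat
Gm28438: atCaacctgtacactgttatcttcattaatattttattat
Counted from 1 at the first base of the window, with the mitochondrial base first, Gm29216 differed by T3A, C4T, A6G, A7G, C9A and A13T, which are 6 of its 492 bases, and Gm28438 by T3C alone among 345. Just outside the rule were Gm13341 with 47.98% and Gm13340 with 45.2% of words shared, both on chromosome 2, and the member just inside it was Gm29216 with 97.2%. All sequences here were read from GENCODE transcripts of the build GRCm38.

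Where a copy matched nearly the whole gene, the reads divided almost evenly. mt-Co2, a catalytic subunit of cytochrome c oxidase, held 180289 reads and its copy Gm28661 held 179659 in TAS-Seq, which left 50.1% on the mitochondrial gene. In BD WTA the counts were 199973 and 197511 (50.3%). Single cells showed the same division, with a median of 50.1% on mt-Co2 over cells of TAS-Seq (5th to 95th percentile 45.8% to 54.3%) and of 50.4% over BD WTA cells (46.1% to 54.6%), among cells with at least 100 reads on the pair. The share on the mitochondrial gene was 50.3% and 50.9% for mt-Co3 in TAS-Seq and BD WTA, 50.4% and 51.6% for mt-Atp6, and 51.3% and 50.8% for mt-Nd3. mt-Nd4l stood apart in 1 library, with 57.4% of the reads of the pair in TAS-Seq (34842 against 25844 on Gm10222) and 50.3% in BD WTA (35179 against 34779).

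Where a copy matched only a stretch of the gene, more than an even part of the reads stayed on the gene. Gm28439 matches bases 1 to 876 of the 1378 bases of mt-Nd4, the 5′ part of this subunit of NADH dehydrogenase, and 80.4% of the reads of the pair stayed on mt-Nd4 in TAS-Seq and 80.1% in BD WTA. Gm29216 matches bases 1054 to 1545 of mt-Co1, the 3′ end of the largest subunit of cytochrome c oxidase. It is 31.8% of the length of mt-Co1, and it held 216676 reads against 369289 on mt-Co1 in TAS-Seq (63.02% on mt-Co1) and 306227 against 490348 in BD WTA (61.6%). Had the copy taken an equal part of the reads of the stretch it matches, that stretch would hold 73.96% of the reads of the pair in TAS-Seq and 76.89% in BD WTA, while the 5′ part of mt-Nd4 that Gm28439 matches would hold 39.1% and 39.8%. Reads of a pair were thus concentrated toward the 3′ end of the gene in both libraries by this count.

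**Figure D1:**
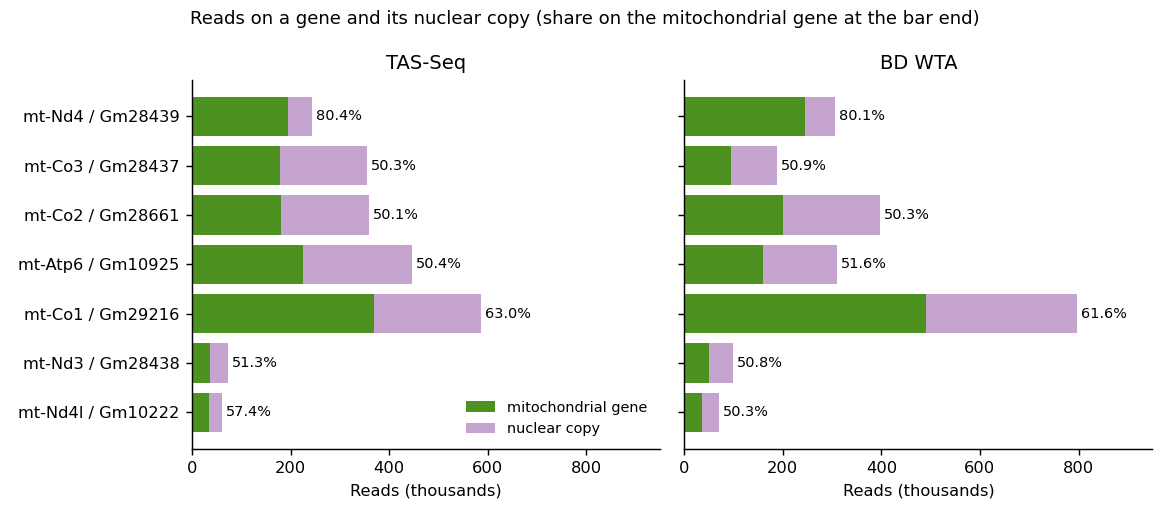
Numbers of reads (horizontal axis) on each mitochondrial gene and, stacked on it, on its nuclear copy for the 7 pairs in each library, with the percent of the pair on the mitochondrial gene at the bar end. The pairs that match over nearly their whole length divide almost evenly, apart from mt-Nd4l in TAS-Seq at 57.4%, while mt-Co1 and mt-Nd4 keep more than their copies.

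In all, the 7 copies held 902162 reads in TAS-Seq and 890601 in BD WTA, or 28.6% and 26.7% of the reads on copies and mt- genes together. The mt- genes alone took 5.82% of all reads in TAS-Seq (2251087 of 38656790) and 7.73% in BD WTA (2443764 of 31608259). With the copies counted, the shares were 8.16% and 10.5%. The share was lower in TAS-Seq either way. Over single barcodes the median share of the mt- genes was 5.64% (interquartile range 4.71% to 6.66%) over 736 TAS-Seq barcodes and 7.67% (6.30% to 9.26%) over 716 BD WTA barcodes, and no barcode was found in both libraries.

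Within mt- reads, the ribosomal RNAs took a larger part in TAS-Seq. mt-Rnr1 and mt-Rnr2, the RNAs of the small and large mitochondrial ribosomal subunit, together held 14.7% of mt- reads (14.6% to 14.7%) in TAS-Seq and 9.36% (9.33% to 9.40%) in BD WTA. The 13 messenger RNAs held 85.3% and 90.5%. The difference lay with mt-Rnr2, at 10.7% of mt- reads in TAS-Seq and 6.08% in BD WTA, more than with mt-Rnr1, at 3.98% and 3.28%. With the copies added to the total, mt-Rnr2 took 7.62% and 4.46%.

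The messenger RNAs differed by complex, in shares that leave out the reads of the copies. The 7 subunits of NADH dehydrogenase (complex I) held 31.8% of mt- reads in TAS-Seq and 37.7% in BD WTA, and mt-Cytb, the one mitochondrial subunit of complex III, held 10.4% and 13.0%. The 3 subunits of cytochrome c oxidase (complex IV) held 32.3% and 32.2%, a near equal sum with unequal parts. mt-Co1 took 16.4% of mt- reads in TAS-Seq and 20.1% in BD WTA, and mt-Co2 took 8.01% and 8.18%. mt-Co3 went the other way, with 7.90% in TAS-Seq and 3.92% in BD WTA. With the copies added to genes and total, mt-Co2 took 11.4% and 11.9% and mt-Co3 11.2% and 5.64%. The ATP synthase subunits (complex V) also took more in TAS-Seq, 10.8% against 7.63%, through mt-Atp6 (9.97% against 6.55%) and not through mt-Atp8 (0.787% against 1.08%), although the 2 genes overlap at chrM:7927-7969 and lie on 1 messenger RNA.

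Among the complex I genes, mt-Nd1 had the widest gap, with 8.06% of mt- reads in TAS-Seq and 11.5% in BD WTA. mt-Nd2 followed with 6.46% and 7.66%, mt-Nd4 with 8.68% and 10.0%, and mt-Nd3 with 1.66% and 2.05%. mt-Nd5 (5.33% and 5.05%) and mt-Nd4l (1.55% and 1.44%) lay close together in the 2 libraries. mt-Nd6 is the only messenger RNA gene on the light strand, and it was rare in both, at 0.0712% (1603 reads) and 0.0663% (1621 reads). All 9 genes of the light strand, mt-Nd6 and 8 transfer RNAs, took 0.0860% and 0.0834% of mt- reads.

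**Figure D2:**
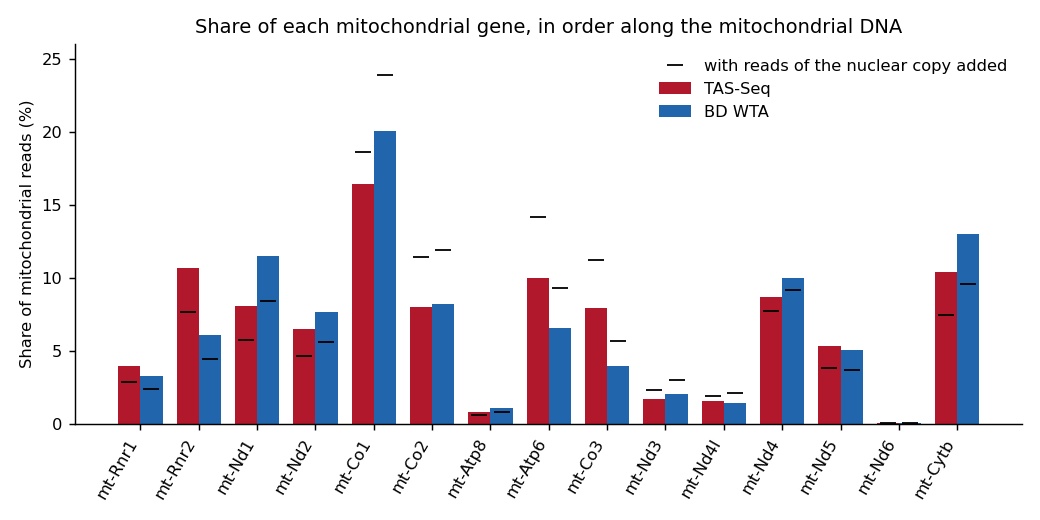
Bars give the share of each of the 13 messenger RNA and 2 ribosomal RNA genes in the mt- reads of each library (percent, all barcodes), in order along the mitochondrial DNA, and dashes the share once reads of the nuclear copies are added to genes and total. mt-Rnr2, mt-Atp6 and mt-Co3 are larger in TAS-Seq, mt-Nd1, mt-Cytb and mt-Co1 are larger in BD WTA, and mt-Nd6 is near 0 in both.

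The order of the genes per length depended on whether the reads of the copies were counted. Per kilobase of gene, mt-Atp6 led in TAS-Seq (329542 reads per kb) before mt-Co2 and mt-Co1, and mt-Co1 led in BD WTA (317377 reads per kb) before mt-Nd1 and mt-Co2. With the reads of each copy added to its gene, mt-Co1 fell to rank 4 in TAS-Seq, behind mt-Atp6, mt-Co2 and mt-Co3, and to rank 2 in BD WTA, behind mt-Co2. At the low end, mt-Nd6 had 3089 reads per kb in TAS-Seq and 3123 in BD WTA, against 65811 and 67617 for mt-Nd5, its neighbour on the other strand.

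Levels between the libraries were then compared as counts per 1000000 reads (CPM) pooled over the cells that passed the filter of the study (at least 500 genes and at most 25% mt- reads), 732 from TAS-Seq and 708 from BD WTA. A gene entered when a library held it at 10 CPM or more with 10 or more cells read, and a 2-fold difference stands in for a call. Of the 15 messenger and ribosomal RNA genes, none differed by 2-fold in either direction, beside 10.0% of the 10028 genes that were higher in TAS-Seq by 2-fold and 5.81% that were lower. Their log2 ratios of TAS-Seq over BD WTA ranged from -0.92 to 0.60 with a median of -0.44, and 12 of the 15 were negative, while the median of all genes was 0.10 with a 5th to 95th percentile of -1.09 to 1.38. The mitochondrial genes lay inside the middle range of all genes, and with TMM factors, edgeR's scaling for library composition, mt-Nd1 alone came past 2-fold.

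mt-Co3 was at 4536 CPM in TAS-Seq and 2987 in BD WTA, a log2 ratio of 0.60, and mt-Rnr2 at 6145 and 4610 CPM, a log2 ratio of 0.41. mt-Atp6 had a log2 ratio of 0.20. These 3 were the positive values, and they stayed positive with TMM factors. On the negative side were mt-Nd1 at 4640 and 8774 CPM (log2 ratio -0.92), mt-Atp8 (-0.87), mt-Cytb (-0.73), mt-Nd3 (-0.72), mt-Co1 at 9469 and 15370 CPM (-0.70), mt-Nd2 (-0.65), mt-Nd4 (-0.62) and mt-Co2 (-0.44). mt-Nd5 (-0.33), mt-Nd4l (-0.30), mt-Nd6 (-0.26) and mt-Rnr1 (-0.12) were the negative values closest to 0. mt-Nd4l, whose reads were divided unevenly with its copy in TAS-Seq, was at -0.49 once the copy was added.

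The log2 ratios of these 15 genes had no clear relation to gene length (Spearman's rho 0.05 across genes), GC content (0.06), the longest run of A (-0.18) or the position on the genome (-0.06). Genes of 1 genome are not independent points, and these values describe them only. Nuclear genes whose products work with the members were read as lists beside them. Of 44 nuclear subunits of oxidative phosphorylation, 5 were higher and 3 lower in TAS-Seq by 2-fold, with a median log2 ratio of 0.24. Of 35 genes of mitochondrial transcription and RNA handling, 26 entered, 3 were higher and 2 lower, and the median was -0.06. Over all genes tested, 10.0% were higher and 5.81% lower by 2-fold, and both lists lay close to these shares.

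Transfer RNAs were close to the limit of detection. The 22 genes held 1868 reads in TAS-Seq (0.0830% of mt- reads) and 2247 in BD WTA (0.0919%), and 3 of them met the minimum for the comparison of levels. The 5 sequences that follow are those 3, mt-Tl1, mt-Tm and mt-Tw, and 2 that were below the minimum but far apart in the libraries, mt-Ta and mt-Ts1. Capitals mark the first of the longest runs of A in each, since the beads capture RNA by its A tail, and none of these runs was longer than 4. The positions are chrM:2676-2750 (plus strand) for mt-Tl1, a leucine transfer RNA that lies directly between mt-Rnr2 and mt-Nd1, chrM:3845-3913 (plus) for mt-Tm, the methionine transfer RNA, chrM:4950-5016 (plus) for mt-Tw, for tryptophan, chrM:5018-5086 (minus) for mt-Ta, for alanine, and chrM:6870-6938 (minus) for mt-Ts1, for serine:
mt-Tl1: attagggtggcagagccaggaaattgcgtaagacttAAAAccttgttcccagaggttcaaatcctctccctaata
mt-Tm: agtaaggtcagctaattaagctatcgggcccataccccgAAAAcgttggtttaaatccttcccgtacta
mt-Tw: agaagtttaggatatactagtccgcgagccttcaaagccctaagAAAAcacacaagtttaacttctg
mt-Ta: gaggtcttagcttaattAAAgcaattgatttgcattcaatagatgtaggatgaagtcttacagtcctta
mt-Ts1: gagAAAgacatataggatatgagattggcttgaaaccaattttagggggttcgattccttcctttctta

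mt-Tl1 had 728 reads in 169 cells of TAS-Seq and 247 reads in 10 cells of BD WTA, a log2 ratio of 1.42. The 5 cells with most of its reads held 10.4% of them in TAS-Seq and 80.4% in BD WTA, so the BD WTA value rests on a few cells. mt-Tm (121 reads in 44 cells against 315 in 20 cells, log2 ratio -1.67) and mt-Tw (261 in 48 cells against 445 in 29 cells, -1.06) were lower in TAS-Seq, though read in more cells. mt-Ts1 (256 reads in 185 cells against 67 in 10) and mt-Ti, for isoleucine (223 in 63 cells against 86 in 4), were below the minimum and had log2 ratios of 1.63 and 1.08. mt-Ta (11 reads in 7 cells against 160 in 15), mt-Tt for threonine (60 in 24 cells against 279 in 9) and mt-Tg for glycine (66 in 37 cells against 161 in 17) had log2 ratios of -4.16, -2.51 and -1.58. The other 14 transfer RNAs had 1 to 44 reads in TAS-Seq and 0 to 75 in BD WTA, in at most 38 cells.

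**Figure D3:**
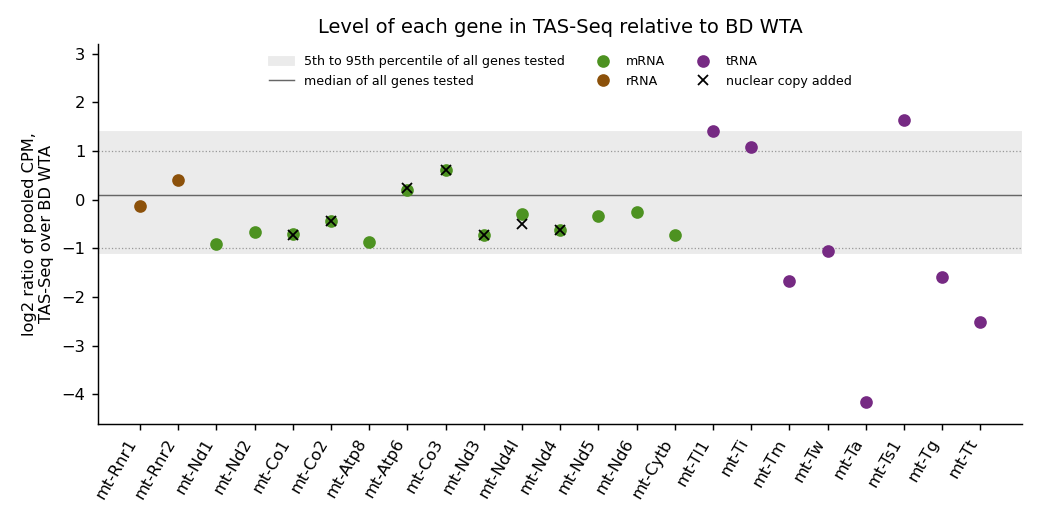
Points give the log2 ratio of pooled CPM, TAS-Seq over BD WTA, for the messenger RNA, ribosomal RNA and 8 named transfer RNA genes, crosses the ratio with the nuclear copy added, the grey band the 5th to 95th percentile of all genes tested, and dotted lines a 2-fold difference. The messenger and ribosomal RNA genes lie within the band (-0.92 to 0.60), and most of the transfer RNAs, on few reads, lie outside it.

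After each cell was thinned to 20000 reads, which left out 25 TAS-Seq and 63 BD WTA cells, a transfer RNA read was left in 39.6% of the 707 cells kept from TAS-Seq and 18.8% of the 645 kept from BD WTA. The median cell then had reads on 15 members in TAS-Seq and on 14 in BD WTA (unthinned, also 15 and 14). Once 5 reads were required, it had 14 members in each. With 5 reads required, a transfer RNA was left in 3.54% of these TAS-Seq cells and 8.84% of these BD WTA cells, the opposite order. mt-Nd6 was the one messenger RNA gene that was often missing. It was read in 31.4% of the thinned TAS-Seq cells and 10.7% of the thinned BD WTA cells. Before thinning it was read in 374 of the 732 cells of TAS-Seq but 79 of the 708 of BD WTA, on nearly equal numbers of reads.

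Levels by cell class were read within each library. Clusters were made from both libraries together without the mt- genes and without the 7 copies, so no member was among the genes clustered on. Nuclear genes with a smaller part of their words shared, such as Gm13340, were not left out, and the cell filter used the mt- share. Of the 8 clusters, 7 took a name from marker genes. B-like cells (409 in TAS-Seq, 367 in BD WTA) and T-like cells (278 and 289) had all of their listed markers raised, as did NK-like cells (21 and 26). The T markers summed to 786 CPM in NK-like cells of TAS-Seq and 1171 in those of BD WTA, against 4762 and 6017 in T-like cells. The eighth cluster (24 and 26 cells) stayed unnamed. Its cells called myeloid-like, one at a time, had at least 5 reads on each of 3 or more markers of monocytes, neutrophils or conventional dendritic cells (23 and 22). Those in the cluster led by S100a8 and S100a9 at a finer resolution were called neutrophil-like (10 and 12) and the remainder other myeloid-like (13 and 10), a division made after the values had been seen. No class was given to 1 cell of TAS-Seq and 4 of BD WTA. In neutrophil-like cells all 5 NK markers were at 0. The 5 B markers summed to 92.6 CPM in TAS-Seq and 91.1 in BD WTA, against 9053 and 9205 CPM in B-like cells. Neutrophil markers summed to 126075 CPM in neutrophil-like cells of TAS-Seq and 41873 in those of BD WTA. Monocyte or macrophage markers summed to 3163 and 8720 CPM there, and conventional dendritic markers to 66.1 and 310. The marker levels of this class thus differed between the libraries, and the part of this in the results was not tested.

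B-like and T-like cells lay close together. The pooled mt- share was 6.05% in B-like and 5.74% in T-like cells of TAS-Seq, and 7.85% and 7.96% in BD WTA. The difference of T-like minus B-like cells was thus -0.306 percentage points (-0.328 to -0.284) in TAS-Seq and 0.114 (0.0863 to 0.142) in BD WTA. The ranges of single cells overlapped almost fully, with medians of 5.85% (interquartile range 4.84% to 6.80%) and 5.64% (4.81% to 6.56%) in TAS-Seq. The BD WTA sign did not hold, since clusters of that library alone gave -0.326 points and other resolutions gave -0.150 and -0.0896.

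NK-like cells had a lower mt- share than B-like cells in both libraries. The pooled share was 3.74% in TAS-Seq and 5.09% in BD WTA, or 0.618 and 0.648 of the B-like share. Single NK-like cells ranged from 2.22% to 5.95% in TAS-Seq, with 19 of 21 below the lower quartile of B-like cells, and from 3.19% to 10.8% in BD WTA, with 24 of 26 below it. Median reads per cell were 48807 for NK-like and 42331 for B-like cells in TAS-Seq and 35020.5 and 35457 in BD WTA. A share of reads does not say whether a cell held less mitochondrial RNA or more of other RNA.

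Neutrophil-like cells had the lowest share. It was 1.31% in TAS-Seq and 2.35% in BD WTA, or 0.216 and 0.299 of the B-like share, and all 10 and all 12 cells lay below the lower quartile of B-like cells, with ranges of 0.114% to 3.07% and of 0.741% to 3.99%. Other myeloid-like cells were at 4.09% and 5.23%, and varied widely, from 0.0874% to 6.57% and from 0.340% to 9.95%. Of these, 8 of 13 and 7 of 10 cells lay below that quartile. The class was a different mixture in the libraries. Its 4 markers of plasmacytoid dendritic cells summed to 3321 CPM in TAS-Seq and 293 in BD WTA. Erythroid markers went the other way, with 100 CPM in TAS-Seq and 1421 in BD WTA. Monocyte or macrophage markers summed to 3092 and 4712, and conventional dendritic markers to 937 and 1053. The part of this mixture in the result was not tested.

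**Figure D4:**
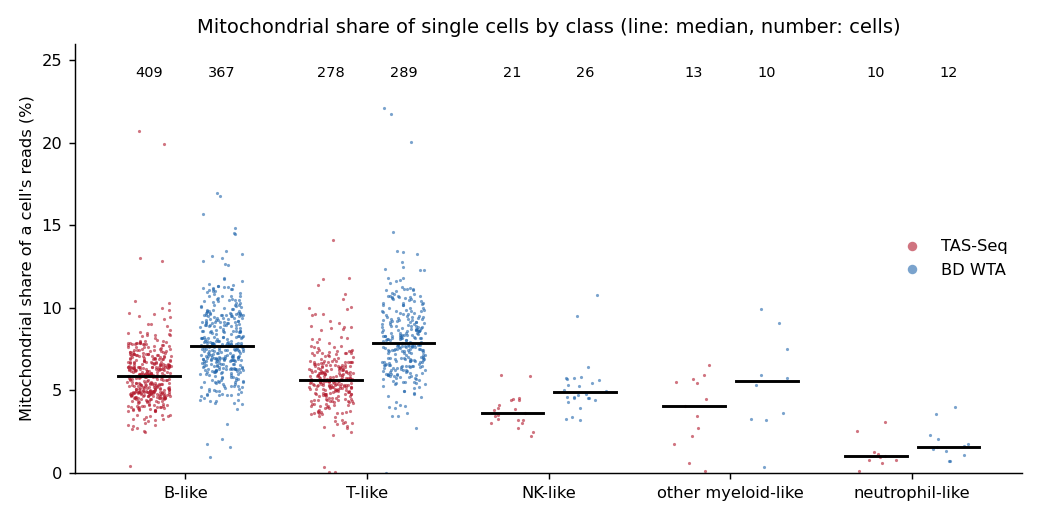
Percent of reads on mt- genes (vertical axis) in each filtered cell (points), by cell class and library, with the median as a line and the number of cells above. NK-like and neutrophil-like cells lie low in both libraries (medians 3.63% and 0.996% in TAS-Seq, 4.88% and 1.59% in BD WTA), while B-like and T-like cells overlap.

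Gene by gene, T-like and B-like cells differed little in level. None of the 15 messenger and ribosomal RNA genes differed by 2-fold in either library, beside 24.6% of all genes tested in TAS-Seq and 26.8% in BD WTA. The median log2 ratio of T-like over B-like was -0.09 in TAS-Seq and 0.03 in BD WTA, equal or close to the medians of all genes (-0.09 and 0.01), and the TAS-Seq median became 0.04 with TMM factors. With pooled reads 5 genes were above 0 and 6 below it in both libraries. With TMM factors, which moved the median of all genes to 0.06 in TAS-Seq, 9 of the 13 messenger RNAs were above 0 there in place of 4. mt-Rnr1 had log2 ratios of 0.24 in TAS-Seq and 0.38 in BD WTA, mt-Rnr2 of 0.09 and 0.27, and mt-Co1 of 0.04 and 0.16, while mt-Nd1 had -0.36 and -0.17, mt-Nd2 -0.29 and -0.19, and mt-Nd5 -0.38 and -0.27. Of the transfer RNAs 1 entered in each library, mt-Tl1 in TAS-Seq with a log2 ratio of -1.25 and mt-Tw in BD WTA with -0.83. The ribosomal RNAs were 15.6% of mt- reads in T-like and 13.5% in B-like cells of TAS-Seq, and 10.1% and 8.31% in BD WTA.

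In NK-like cells all 15 genes were below their B-like level in both libraries when reads were pooled. The median log2 ratio was -0.69 in TAS-Seq and -0.56 in BD WTA, where all genes had -0.14 and -0.11. TMM factors moved the medians of all genes to -0.33 and -0.42 and those of the 13 messenger RNAs from -0.73 and -0.64 to -0.90 and -0.92, and equal weights for cells put 1 messenger RNA above its B-like level in TAS-Seq. None passed 2-fold in TAS-Seq, beside 27.9% of all genes that were lower by 2-fold, and 2 of 15 did in BD WTA, mt-Nd5 (-1.04) and mt-Nd6 (-1.69, from 20 reads), beside 30.3%. The counts were below that background. mt-Co1 was at 9620 CPM in B-like and 6576 in NK-like cells of TAS-Seq and at 15077 and 10197 in BD WTA, log2 ratios of -0.55 and -0.56. mt-Nd5 was at 3542 and 1771 CPM in TAS-Seq and at 4370 and 2129 in BD WTA. The smallest differences were those of mt-Rnr1 (-0.23 and -0.22) and, in BD WTA, of mt-Rnr2 (-0.10), which turned to 0.17 when each cell was weighted equally.

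The nuclear subunits of the same complexes were not lower in NK-like cells. Their 44 genes had a median log2 ratio over B-like cells of 0.66 in TAS-Seq and 0.79 in BD WTA. Of these genes, 13 and 16 were higher by 2-fold, beside 20.3% of all genes in each library. Lower by 2-fold were 3 and 2, beside 27.9% and 30.3% of all genes. TMM factors left the medians at 0.50 in each. Atp5h, a subunit of the ATP synthase stalk, had 1.82 and 1.03, and Cox6b1 and Cox7a2, subunits of cytochrome c oxidase, had 1.24 and 1.14 and 1.18 and 1.25. In T-like cells the list had medians of 0.34 and 0.35. The genes of mitochondrial RNA handling had medians of 0.10 and -0.07 in NK-like cells and of -0.25 and 0.27 in T-like cells.

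In neutrophil-like cells the messenger RNAs and the ribosomal RNAs parted. All 13 messenger RNAs were below the B-like level by 2-fold in both libraries, beside 53.8% of all genes lower by 2-fold in TAS-Seq and 52.8% in BD WTA, while neither ribosomal RNA was with pooled reads. Their median log2 ratio was -3.73 in TAS-Seq and -1.84 in BD WTA, and the medians of all genes were -1.18 and -1.12. With each cell weighted equally the medians of the messenger RNAs were -3.87 and -2.86, so the BD WTA value depends on the weighting. mt-Nd1 was at 5304 CPM in B-like and 106 in neutrophil-like cells of TAS-Seq (log2 ratio -5.65, from 40 reads) and at 9650 and 1355 CPM in BD WTA (-2.83). mt-Co1 was at 1121 CPM in neutrophil-like cells of TAS-Seq (log2 ratio -3.10) and at 4684 in BD WTA (-1.69). mt-Nd6 had 4 reads in TAS-Seq and was listed at 0 in BD WTA, where a floor of 3 reads over the class puts its log2 ratio at -3.37 or lower. Of the transfer RNAs, mt-Tm (4.53), mt-Tl1 (2.06) and mt-Tt (1.32) were higher by 2-fold in BD WTA, beside 1960 of the 9382 genes tested. mt-Tw (-1.78) was lower there, and in TAS-Seq mt-Tl1 alone entered, at -1.71. Both of these lower values rest on the floor of 3 reads. In the whole BD WTA library these transfer RNAs held 247 to 445 reads each.

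mt-Rnr2 was at 6058 CPM in B-like and 7024 in neutrophil-like cells of TAS-Seq and at 4297 and 4427 in BD WTA, log2 ratios of 0.21 and 0.04. The BD WTA value became -0.32 with TMM factors and 0.30 with each cell weighted equally. mt-Rnr1 was at 2131 and 1949 CPM in TAS-Seq (-0.13) and at 2227 and 1385 in BD WTA (-0.69), where TMM factors put it at -1.05, past 2-fold. As a share of all reads of the class, ribosomal RNA was 0.819% in B-like and 0.897% in neutrophil-like cells of TAS-Seq and 0.652% and 0.581% in BD WTA. Messenger RNA was 5.22% and 0.408% in TAS-Seq, and 7.19% and 1.73% in BD WTA.

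The ribosomal RNAs therefore made up 68.7% of the mt- reads of neutrophil-like cells in TAS-Seq (3393 of 4938) and 24.8% in BD WTA (3127 of 12628). Single cells had a median of 71.9% (range 0% to 92.3%) and of 54.7% (3.65% to 87.5%), and 9 of 10 and 9 of 12 cells lay above the 95th percentile of B-like cells. Without the cell with most mt- reads, the pooled values were 73.3% and 33.4%. The other classes ranged from 13.5% to 16.3% in TAS-Seq and from 7.65% to 11.7% in BD WTA. The nuclear oxidative phosphorylation genes had median log2 ratios of -0.76 and -0.40 in neutrophil-like cells, and the mitochondrial RNA handling genes of -1.99 and -1.71.

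**Figure D5:**
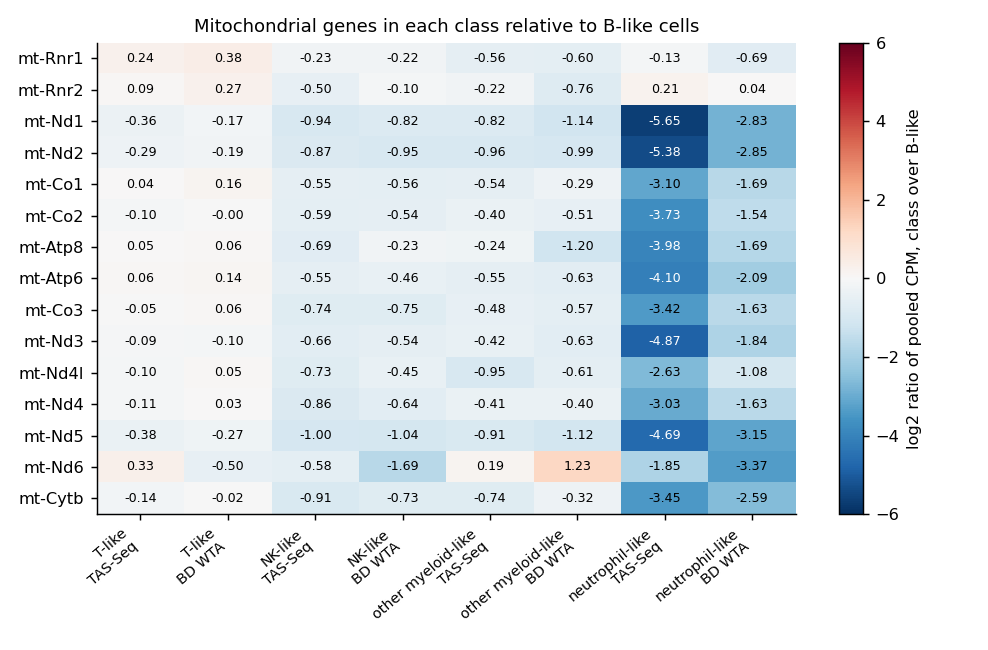
Each cell gives the log2 ratio of pooled CPM over B-like cells of the same library (blue lower, red higher) for a messenger or ribosomal RNA gene (vertical axis) in a class and library (horizontal axis), and the value of mt-Nd6 in neutrophil-like cells of BD WTA is a bound from 3 reads. In neutrophil-like cells the messenger RNAs lie far below the ribosomal RNAs (mt-Nd1 -5.65 and mt-Rnr2 0.21 in TAS-Seq), and NK-like values are all below 0.

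Other myeloid-like cells did not show this division. Their 15 genes had a median log2 ratio of -0.54 in TAS-Seq, with none lower by 2-fold beside 30.3% of all genes, and of -0.61 in BD WTA, with 3 lower by 2-fold beside 41.9%, mt-Atp8 (-1.20), mt-Nd1 (-1.14) and mt-Nd5 (-1.12). mt-Nd6 was higher there in BD WTA (1.23, from 95 reads). The BD WTA median was close to that of all genes (-0.52).

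B-like cells were not uniform, and neither were T-like cells. The T-like clusters had pooled mt- shares of 5.92%, 5.70% and 5.56% in TAS-Seq and of 8.78%, 7.89% and 6.83% in BD WTA. The smallest of the 3 B-like clusters held 70 and 60 cells and is described here after its values were seen. It was led by Plac8 and Cr2, the complement receptor abundant on marginal zone B cells. Its pooled mt- share was 6.39% in TAS-Seq and 9.19% in BD WTA, against 5.85% and 6.09% for the other B-like clusters in TAS-Seq and 7.34% for each in BD WTA. Its cells also had more reads, with a median of 76582.5 against 44261 and 31726 in TAS-Seq and 65009 against 38142 and 25721.5 in BD WTA, and the part of this in the result was not tested. Of the 15 genes, 12 were higher than in the other B-like cells in TAS-Seq (median log2 ratio 0.14) and 15 in BD WTA (0.32), none by 2-fold, beside 18.1% and 22.2% of all genes that differed by 2-fold. mt-Co3 had log2 ratios of 0.26 and 0.44, and mt-Nd3 of 0.31 and 0.47.

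Across single cells of 1 class, the members went together only weakly. Between pairs of the 14 messenger and ribosomal RNA genes other than mt-Nd6, the median of Spearman's rho over 91 pairs was 0.27 in B-like and 0.30 in T-like cells of TAS-Seq, and 0.26 and 0.24 in BD WTA. The highest in TAS-Seq was that of mt-Nd4l and mt-Nd4, 0.52 and 0.56, neighbours that overlap and lie on 1 messenger RNA. In BD WTA it was mt-Co2 and mt-Atp6 in B-like cells (0.46) and mt-Co1 and mt-Atp6 in T-like cells (0.51). The points share a cell's depth and library, and shares of 1 total are not independent. The mt- share of a cell had a rho of 0.18 with its reads in B-like cells of TAS-Seq and of 0.06 in BD WTA. In T-like cells it was -0.03 and -0.15. With the share of reads on the nuclear copies it was 0.83 to 0.86. Reads of matching sequence divide between a gene and its copy, so this last relation is not an independent one.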

How the data were processed

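The authors mapped trimmed reads with Bowtie2 2.4.2 to mouse cDNA and non-coding RNA sequences of GRCm38 and deposited whole-number read counts per gene and cell barcode, without molecular identifiers. Cutadapt 2.10 and R 3.6.3 are also named in the submitters' processing notes. Whether these tables had background subtracted is not given in the sources used here.

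Barcodes with at least 500 genes and at most 25% mt- reads were kept. Cells were clustered in Seurat 5.3.0 (counts scaled to 1000000, 6166 variable genes without mt- genes and copies, scaled within each library with reads per cell regressed out, 20 principal components, resolution 1). A cluster took a name from at least 3 listed markers that were raised by a log2 difference of 1 and read in 50% of its cells. At least 1 marker of that list also had to be among the 10 most raised genes of the cluster. No other list could have more markers there. The unnamed cluster had 3 of 6 neutrophil markers raised but 0 among these 10 genes. In classes under 20 cells the minimum of 10 cells per gene became 5. A level of 0 was set to 3 counts. Scrublet, run from scanpy 1.11.5 with an expected rate of 0.05, looked for doublets. It marked 3 TAS-Seq and 4 BD WTA cells, which were removed only in an alternative. TMM factors came from edgeR 4.0.16 in R 4.3.3, and intervals (exact binomial and Poisson) from scipy 1.17.1. The pooled ratio was run on simulated counts with known folds, drawn from the pooled profile of TAS-Seq cells. These counts had no cell classes and no spread between cells beyond counting error and the set folds. They therefore do not cover the small classes.

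Total counts were 38656790 reads in TAS-Seq and 31608259 in BD WTA, with median counts of 46515.5 and 38154 per barcode. All 13 messenger and 2 ribosomal RNA genes are named, and of the transfer RNAs those among the 5 with most reads in a library or with a 2-fold difference and at least 100 reads. Members and lists were chosen with earlier results of these data known. Coordinates and sequences come from GENCODE transcripts of GRCm38, an older annotation than the one the authors mapped to.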

Additional observations from a re-analysis of the deposited data

Results flagged for a closer look

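Several differences between T-like and B-like cells had opposite signs in the libraries, and none of these differences between libraries was tested. The pooled mt- share of T-like minus B-like cells was -0.306 percentage points in TAS-Seq and 0.114 in BD WTA. The log2 ratio of T-like over B-like was -0.0453 in TAS-Seq and 0.0584 in BD WTA for mt-Co3, -0.0966 and 0.0505 for mt-Nd4l, and -0.108 and 0.0269 for mt-Nd4. For mt-Nd6, read in 374 TAS-Seq and 79 BD WTA cells, it was 0.327 and -0.504. The groups held 278 and 409 cells in TAS-Seq and 289 and 367 in BD WTA, of 1 library each.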

How the results depend on the processing

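No paired analysis was possible because there was 1 library a method and no result came from a test. Of 58 alternatives over 13 results, 20 moved a value by less than its interval or a count by at most 1.5 times. Another 33 moved it more and 5 turned its sign. The 7 alternatives chosen after seeing the data were those with 10% of the words shared and the T-like minus B-like shares by cell medians or with copies. The causes of these changes were not tested.

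The mt- share of TAS-Seq minus BD WTA, -1.91 percentage points, was -1.88 in filtered cells, -2.11 with cells weighted equally, -2.39 with the nuclear copies and -2.57 with 13 nuclear genes that share 10% of their words, which held 30.7% and 29.6% of reads in place of 28.6% and 26.7%. The ribosomal RNA difference of 5.29 points was 5.04 with equal weights and 3.598 with copies. The median log2 ratio over the 18 members tested, -0.53, was -0.61 with TMM factors and -0.75 with no minimum level. It was -0.55 with equal weights, -0.56 with copies and -0.58 in B-like cells. Without a minimum 18 of 36 members passed 2-fold, in place of 3 of 18. With the minimum, 10.0% of all genes were higher by 2-fold and 5.81% lower, and their share without it is not given here.

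The T-like minus B-like share in TAS-Seq, -0.306, was -0.106 with clusters of that library alone, -0.275 at resolution 0.5, -0.151 as a mean and -0.208 as a median of cells, and -0.159 with no limit on the mt- share. In BD WTA, 0.114 became -0.326 with its own clusters, -0.150 at resolution 0.5 and -0.0896 at resolution 2, and 0.224, 0.199, 0.206 and 0.269 as a mean, as a median, with no limit and with copies. The median log2 ratio over members in TAS-Seq, -0.0943, was -0.0177 with its own clusters, -0.0477 with equal weights and 0.0427 with TMM factors. In BD WTA, 0.0121 was -0.0514 with its own clusters, 0.0467 with equal weights and 0.0505 with no minimum. The number past 2-fold, 1 in TAS-Seq and 0 in BD WTA, was 10 and 9 with no minimum, and 0 in TAS-Seq with equal weights. With the minimum, 24.6% and 26.8% of all genes passed 2-fold, and their share without it is not given here. The detection difference of 1 gene was 0 at 10000 reads, at 5000 reads and with 5 reads required.

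Depth limits the transfer RNAs, mt-Nd6 and the small classes most. Neutrophil-like cells held 4938 and 12628 mt- reads, and mt-Nd6 there had 4 reads in TAS-Seq and 0 in BD WTA.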

Other observations

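The barcodes over the mitochondrial limit entered a comparison of cell classes only in the alternative with no such limit. The 4 TAS-Seq barcodes had 29.4% to 63.4% of reads on mt- genes, with ribosomal RNA at 9.71% to 23.9% of those reads. The 8 BD WTA barcodes had 25.3% to 47.2%, with ribosomal RNA at 6.44% to 23.5%. Among them 1 had only 346 genes and was left out of that alternative too. Pooled, ribosomal RNA was 18.4% of their mt- reads in TAS-Seq and 15.8% in BD WTA, against 14.6% and 9.26% in filtered cells. In the BD WTA barcodes the genes of the light strand took 0.188% of mt- reads (75 reads), against 0.0817% in filtered cells, and in the TAS-Seq barcodes 0.0100% (3 reads) against 0.0870%.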
